A study of Mus musculus with 30 samples.

Results

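The endoplasmic reticulum (ER) stress genes followed here are 10 genes whose products fold proteins in the ER, degrade those that do not fold, or control that machinery: Hspa5, Hsp90b1, Calr, Pdia3, Pdia4, Pdia6, Xbp1, Atf4, Ddit3 and Herpud1. They were chosen by symbol, with every probe set that the platform annotation pairs with exactly 1 gene of that name taken in. This gave 12 probe sets of the 12422 on the array that are not array controls, 3 of them for Pdia6 and 1 for each other gene. Of the 12, 11 probe sets of 9 genes passed the filter on low signals, and the probe set for Calr did not. Secreted and membrane proteins fold in the ER with the help of chaperones and protein disulfide isomerases. When unfolded proteins accumulate there, the sensors IRE1, PERK and ATF6 start the unfolded protein response. IRE1 splices the Xbp1 mRNA, and PERK favours translation of Atf4 and through it transcription of Ddit3. XBP1 and ATF6 raise the genes of chaperones and of ER-associated degradation. In the olfactory epithelium the PERK branch is known for its part in the choice of a single odorant receptor by each immature sensory neuron. The arrays measured mRNA levels, so Xbp1 splicing, Atf4 translation and protein were not measured.

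The tissue was microdissected olfactory epithelium from 6-week-old mice in which both olfactory bulbs had been removed. The operation cuts the axons of the olfactory sensory neurons and is followed by their death and replacement. Mice were labelled SR-A mutant or wild type, where SR-A is a scavenger receptor of macrophages and its gene is Msr1. Each label was sampled at 0, 2, 8, 16 and 48 h, with 3 arrays in each of the 10 groups. The labels give neither the mutant allele nor the strain, and do not say whether the mice at 0 h had an operation. Nothing in them says that each array came from a different mouse. The p-values therefore measure only how far these arrays scatter, which may be technical, and their small number limits the precision. All groups share the age and the tissue, and no sham-operated group was analysed here.

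Values are MAS5 signals, the linear brightness of a probe set after the authors' scaling of every array to the same trimmed mean, and a signal of one probe set was not set against that of another. The brighter of the 2 probe sets for Msr1 gave 442 ± 82.2 in the mutant-labelled arrays and 155 ± 63.0 in the wild-type-labelled arrays (SD, n = 15 each). The other gave 226 ± 61.7 in the mutant-labelled and 94.2 ± 35.4 in the wild-type-labelled arrays (SD, n = 15 each). Both were higher in the arrays labelled mutant, which is opposite to the direction that loss of the transcript would give. The targeted gene thus did not check the labels, and the groups are called mutant-labelled and wild-type-labelled. An exchange of the 2 labels, which was not tested, would turn the sign of every difference between labels. The 3 mutant-labelled arrays at 2 h stood apart in the Gapdh measure of RNA quality, with log2 differences between its 3′ and 5′ control probe sets of 5.59, 0.15 and 1.27, against -0.31 to -0.13 in the other 27 arrays. By the same measure for Actb, 1 of them stood apart, at 2.27, and the other two had 1.02 and 0.43, against 0.45 to 1.11 in the other 27. Comparisons that do not need them were fitted on the other 27 arrays, and those that need them were fitted on all 30. Omp, Adcy3 and Cnga2, which define mature olfactory sensory neurons, were above the signal floor of 113.7 on every array. The lowest Omp signal, 128.5, was close to that floor and came from the mutant-labelled arrays at 2 h, whose mean was 6827. The summed signal of 13 B and plasma cell markers was higher in the mutant-labelled arrays at 0 h, at 15081 to 28181 against 2685 to 3719 in the wild-type-labelled arrays. Plasma cells are known for an expanded ER that depends on Xbp1.

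In GRCm38.p6, Hspa5 lies on chromosome 2 from 34772090 to 34776529, Pdia3 on chromosome 2 from 121413902 to 121438687 and Xbp1 on chromosome 11 from 5520641 to 5525993. The ER stress response element (ERSE) is the sequence through which ATF6 and XBP1 are known to raise chaperone genes. In windows of 250 bases before to 50 after each RefSeq start, with both strands searched, the ERSE (CCAAT, any 9 bases, CCACG) was found in 4 of the 10 genes, Hspa5, Calr, Hsp90b1 and Pdia6, and in 39 of all 32851 windows (0.119%). The related ERSE-II (ATTGG, any 1 base, CCACG) was found in 12 of all windows (0.0365%), that of Herpud1 among them. The Herpud1 window holds no ERSE, so no printed site of one motif overlaps the other. No match to the XBP1-bound core TGACGTGG or to the C/EBP-ATF composite element TGATGNAAT lay in any of the 10 windows, against 0.676% and 0.965% of all windows. The matched sites are shown, as the one sequence feature that several of the genes share here, with the fixed letters of the motif in capitals and 15 bases on each side. Sequences are RefSeq, build GRCm38.p6, on the strand of the gene, 5′ to 3′, and a match is a description of the letters.
Hspa5, chr2:34772010-34772058, + strand: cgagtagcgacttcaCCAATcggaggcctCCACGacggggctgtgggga
Pdia6, chr12:17266476-17266524, + strand: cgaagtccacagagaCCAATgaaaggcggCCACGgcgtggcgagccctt
Hsp90b1 upstream site, chr10:86705623-86705671, - strand: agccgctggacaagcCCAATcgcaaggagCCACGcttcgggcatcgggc
Hsp90b1 downstream site, chr10:86705518-86705566, - strand: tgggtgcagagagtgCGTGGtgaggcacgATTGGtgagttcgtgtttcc
Calr, chr8:84847060-84847108, - strand: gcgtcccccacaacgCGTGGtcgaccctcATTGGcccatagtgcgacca
Herpud1 ERSE-II, chr8:94386362-94386402, + strand: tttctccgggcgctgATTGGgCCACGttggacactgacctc
The Hspa5 site lies 65 to 47 bases before the annotated start, that of Pdia6 98 to 80, those of Hsp90b1 212 to 194 and 107 to 89, that of Calr 162 to 144 and that of Herpud1 52 to 42. The downstream Hsp90b1 site and the Calr site read in the opposite direction to the gene, so their capitals show the motif's reverse complement.

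After bulbectomy, the member probe sets that passed the test from 8 h on all fell in the mutant-labelled arrays and all rose in the wild-type-labelled arrays, and 5 of 11 passed at 48 h under each label. In the mutant-labelled arrays Hspa5, Pdia3 and Atf4 fell at 16 h and 48 h, and Ddit3 and 1 probe set of Pdia6 fell at 48 h. Under the wild-type label, Xbp1, Hspa5, Pdia3 and 2 probe sets of Pdia6 rose by 48 h. These are calls within each label. A test of the difference between the labels' time courses passed for Hspa5, Pdia3 and Xbp1 alone. It did not pass for Atf4, Ddit3 or the 3 Pdia6 probe sets (limma F test, adjusted p = 0.143, 0.32 and 0.105 to 0.168). Atf4 and Ddit3 had log2 changes of -0.15 and -0.13 by 48 h under the wild-type label, and neither passed. By a moderated test in limma with an adjusted p under 0.05 over all 6968 tested probe sets, 1 of the 11 member probe sets fell in mutant-labelled arrays at 8 h, 3 at 16 h and 5 at 48 h. None rose at these times. Of all tested probe sets, 0.832%, 2.54% and 6.79% fell at these times. Of the 11 probe sets, 5, of 4 genes, rose in the wild-type-labelled arrays by 48 h and none fell, where 9.80% of all tested probe sets rose. None passed limma's test there at 2 h, 8 h or 16 h, with 1, 2 and 2 of the 11 at an unadjusted p under 0.05. Such an unadjusted p was found for 19.8%, 9.62% and 25.9% of all tested probe sets. Of all probe sets, 1.89%, 0.244% and 9.59% were called in either direction at those times. The median log2 change of the 11 probe sets was -0.22, -0.29 and -0.33 at 8, 16 and 48 h in the mutant-labelled arrays and -0.02, 0.11 and 0.31 in the wild-type-labelled arrays. The median of all tested probe sets lay between -0.02 and 0.02. The changes within a label share its 3 arrays at 0 h. In bulk tissue, fewer cells of a type and less RNA per cell cannot be told apart.

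**Figure D1:**
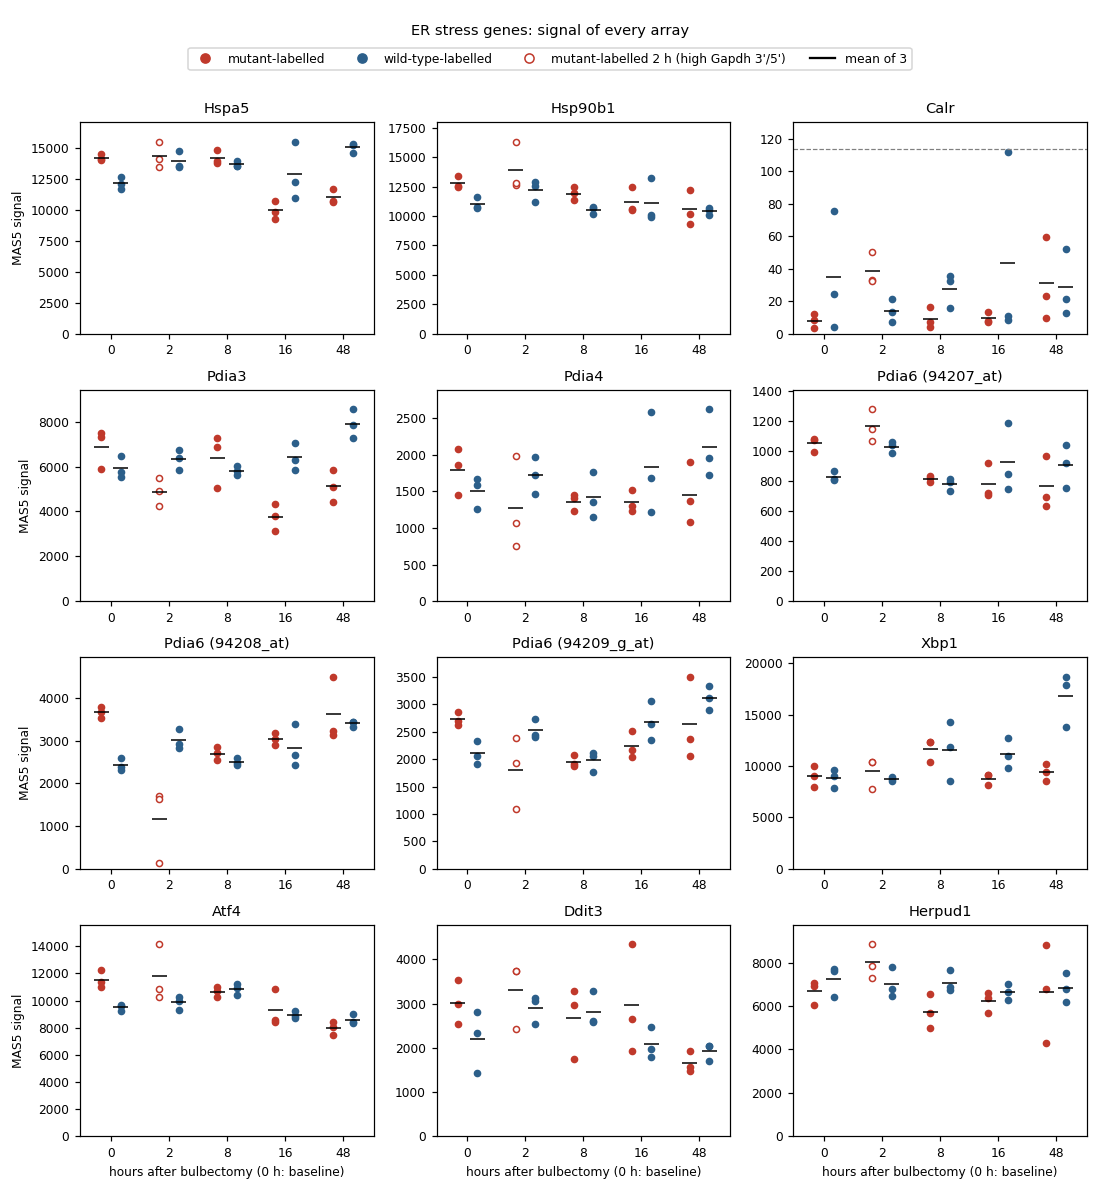
MAS5 signal (y axis, linear) of each of the 12 probe sets against hours after bulbectomy (0, 2, 8, 16 and 48 h), 1 panel per probe set, with mutant-labelled arrays left of wild-type-labelled arrays. Points are single arrays, black bars are means of 3 arrays, open circles are the mutant-labelled arrays at 2 h, and the dashed line in the Calr panel is the floor. At 48 h all 3 mutant-labelled arrays lie below all 3 wild-type-labelled arrays for Hspa5, Pdia3 and Xbp1.

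Hspa5 encodes BiP, the Hsp70-type chaperone of the ER lumen that also binds the stress sensors. Mutant-labelled arrays gave 13981, 14465 and 14069 at 0 h and 13775, 14831 and 13935 at 8 h. They gave 9819, 10703 and 9273 at 16 h and 10623, 11673 and 10681 at 48 h. For wild-type-labelled arrays the signals were 12096, 12601 and 11686 at 0 h and 13543, 13535 and 13927 at 8 h, and then 10933, 12232 and 15435 at 16 h and 15233, 14565 and 15292 at 48 h. The 6 mutant-labelled arrays at 16 h and 48 h lay below all 6 at 0 h and 8 h, and the wild-type-labelled arrays at 48 h lay above those at 0 h, with no overlap in either case. Hspa5 fell in the mutant-labelled arrays by 0.52 ± 0.09 on the log2 scale at 16 h (± SE, adjusted p = 0.00328), a factor of 1.43. At 48 h it fell by 0.37 ± 0.09 (adjusted p = 0.0134). It rose by 0.31 ± 0.09 in the wild-type-labelled arrays at 48 h (adjusted p = 0.0256). That call was lost without wild-type-labelled replicate 1 or 3 at 0 h or replicate 1 or 3 at 48 h, with adjusted p of 0.0619, 0.0893, 0.0781 and 0.063. Hspa5 was thus lower under one label and higher under the other at 48 h than at 0 h. Between labels, the log2 difference of mutant-labelled minus wild-type-labelled arrays was -0.45 ± 0.09 at 48 h (adjusted p = 0.00201). It was -0.36 ± 0.09 at 16 h (adjusted p = 0.0173), and -0.22 without wild-type-labelled replicate 3 (adjusted p = 0.129) or -0.31 without mutant-labelled replicate 3 (adjusted p = 0.0772). The difference at 48 h passed without any 1 array, and that at 16 h rested on 2 arrays. In fits on the 6 arrays of each pair of groups alone, the 5 calls named for Hspa5 did not pass (adjusted p = 0.0501 to 0.155). The wild-type-labelled replicate 3 at 16 h, 15435 against 10933 and 12232 for the other two, was also the highest of its group for Hsp90b1, Pdia3, Pdia4 and the 3 Pdia6 probe sets. Its B and plasma cell marker sum was 23401, against 11549 and 4880.0 for the other two, and the part of that sum in these values was not tested.

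Pdia3 encodes ERp57, the disulfide isomerase that works with calreticulin and calnexin on glycoproteins. Its group means ran close to those of Hspa5, with a Pearson r of 0.92 over 9 groups as a description. Mutant-labelled arrays gave 7312, 5892 and 7493 at 0 h and 5029.6, 6887 and 7275 at 8 h. They gave 3779, 3129 and 4317 at 16 h and 5087, 5849 and 4441 at 48 h. For wild-type-labelled arrays the signals were 6459, 5538 and 5783 at 0 h and 6012, 5827 and 5638 at 8 h, and then 5843, 6309 and 7074 at 16 h and 7856, 8568 and 7286 at 48 h. The mutant-labelled group at 16 h was the lowest of the 9 groups and the wild-type-labelled group at 48 h the highest, and the labels did not overlap at either time. Pdia3 fell by 0.89 ± 0.14 on the log2 scale in the mutant-labelled arrays at 16 h (adjusted p = 0.000794), a factor of 1.85. Against the wild-type-labelled arrays the log2 difference was -0.78 ± 0.14 at 16 h (adjusted p = 0.00154) and -0.63 ± 0.14 by 48 h (adjusted p = 0.00319). These 3 results held under every alternative run. The changes from 0 h at 48 h were less firm. At 48 h, Pdia3 was also lower than at 0 h in the mutant-labelled arrays, by a log2 change of -0.43 ± 0.14 (adjusted p = 0.0462), and higher in the wild-type-labelled arrays, by 0.42 ± 0.14 (adjusted p = 0.0427). The first passed no longer without mutant-labelled replicate 1 or 3 at 0 h or replicate 1 or 3 at 48 h (adjusted p = 0.133, 0.147, 0.07 and 0.193). The second passed no longer without wild-type-labelled replicate 2 or 3 at 0 h or replicate 1 or 2 at 48 h (adjusted p = 0.129, 0.107, 0.0996 and 0.138). Under the other settings tried, the first also did not pass in 5, with adjusted p of 0.0579 to 0.181, and the second in 3, with 0.0531 to 0.0659.

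Pdia6 and Pdia4 encode further disulfide isomerases of the ER lumen, and Pdia6 is known to act on the sensor IRE1. The 3 Pdia6 probe sets differed in the label under which they passed at 48 h, but hardly in the difference between labels. The change by 48 h in mutant-labelled minus that in wild-type-labelled arrays was close for all 3. It was -0.60 ± 0.22 for 94207_at, -0.53 ± 0.17 for 94208_at and -0.65 ± 0.21 for 94209_g_at. None passed limma's F test of a difference in time course (adjusted p = 0.168, 0.105 and 0.105). The pair 94208_at and 94209_g_at, which share a target, rose in the wild-type-labelled arrays at 48 h. The other, 94207_at, was designed on another transcript sequence and fell in the mutant-labelled arrays at 48 h. For 94208_at the signals were 3225, 4506 and 3142 in the mutant-labelled arrays at 48 h, against 3793, 3533 and 3683 at 0 h. Wild-type-labelled arrays had 3445, 3327 and 3441 at 48 h, against 2591, 2374 and 2318 at 0 h. The wild-type-labelled arrays at 48 h lay above those at 0 h with no overlap, and the mutant-labelled arrays already lay above the wild-type-labelled ones at 0 h. The rise in the wild-type-labelled arrays was 0.49 ± 0.12 on the log2 scale (adjusted p = 0.00593), and 0.57 ± 0.15 for 94209_g_at (adjusted p = 0.00807). The mutant-labelled minus wild-type-labelled difference of 94208_at was 0.60 ± 0.12 at 0 h (adjusted p = 0.00168). With all 30 arrays in the fit, the rise at 48 h and the difference at 0 h of 94208_at had adjusted p of 0.593 and 0.457, and the rise of 94209_g_at 0.0516. The mutant-labelled arrays at 2 h gave 123, 1709 and 1629 for 94208_at, and the first of these 3 is the array that stood farthest apart in RNA quality. In that group, with all 30 arrays fitted, 3 of 11 probe sets were lower than at 0 h, where 10.3% of all were. Their log2 changes were -2.39 for 94208_at, -0.67 for 94209_g_at and -0.50 for Pdia3 (adjusted p = 0.0031, 0.0212 and 0.0189). The array with the Gapdh difference of 5.59 bore on all 3 values. Without it the change of 94208_at was -1.14 (adjusted p = 5.61e-06), and on the 6 arrays of the 2 groups alone the change of -2.39 did not pass (adjusted p = 0.242). The last 2 did not pass without that array (adjusted p = 0.217 and 0.123), without mutant-labelled replicate 1 at 0 h (0.0679 and 0.0716) or without replicate 3 at 0 h (0.0513 and 0.078). At 8 h the 94208_at change of -0.44 ± 0.12 in the mutant-labelled arrays (adjusted p = 0.0481) did not pass without any 1 of the 6 arrays compared (adjusted p = 0.084 to 0.186) or under 5 other settings (0.0545 to 0.807).

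For 94207_at the mutant-labelled arrays gave 697, 966 and 636 at 48 h, against 1077, 1084 and 997 at 0 h. The wild-type-labelled arrays gave 924, 1042 and 756 at 48 h, against 865, 817 and 809 at 0 h. The mutant-labelled arrays at 48 h lay below those at 0 h, and the wild-type-labelled arrays overlapped. The log2 change in the mutant-labelled arrays was -0.48 ± 0.15 (adjusted p = 0.0408). It did not pass without mutant-labelled replicate 1, 2 or 3 at 0 h or replicate 1 or 3 at 48 h (adjusted p = 0.0999, 0.11, 0.0608, 0.0933 and 0.188), without a filter on low signals (0.071) or on the 6 arrays alone (0.173). Pdia4 had 1368, 1897 and 1084 in the mutant-labelled arrays at 48 h, against 1856, 1445 and 2082 at 0 h. It had 2625, 1723 and 1957 in the wild-type-labelled arrays at 48 h, against 1673, 1589.6 and 1261 at 0 h. Its log2 changes ran the way of Pdia3 and Pdia6, at -0.33 ± 0.24 and 0.47 ± 0.24, and passed in no comparison.

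Hsp90b1 encodes GRP94, the ER form of Hsp90, and Calr encodes calreticulin, the calcium-binding chaperone that retains glycoproteins for folding. Hsp90b1 ranged from 9361 to 16315 over all 30 arrays, with 10183, 12226 and 9361 in the mutant-labelled arrays at 48 h, against 13428, 12432 and 12575 at 0 h. Wild-type-labelled arrays had 10502, 10085 and 10639.7 at 48 h, against 11624, 10647 and 10724 at 0 h. The wild-type-labelled arrays at 48 h lay just below those at 0 h, and so did the mutant-labelled ones. The log2 changes of Hsp90b1 over the 7 comparisons with 0 h lay between -0.28 and 0.15, none passed, and the highest of its 9 group means was 1.23 times the lowest. The Calr probe set gave 3.4 to 111.9 over the 30 arrays, at or below the floor on each, so no change of Calr was measured.

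Xbp1, the transcription factor that IRE1 activates, showed the largest rise of the 11 probe sets in the wild-type-labelled arrays at 48 h. Mutant-labelled arrays gave 8983, 7952 and 10026 at 0 h and 10334, 12281 and 12283 at 8 h. They gave 9082, 9123 and 8096 at 16 h and 9406, 10154 and 8568 at 48 h. For wild-type-labelled arrays the signals were 9559, 7879 and 9024 at 0 h and 14239.9, 11876 and 8497 at 8 h, and then 9776, 12686 and 10913 at 16 h and 17916, 13815 and 18702 at 48 h. All 3 wild-type-labelled arrays at 48 h lay above every mutant-labelled array of the 4 times given, and the mutant-labelled arrays at 48 h overlapped those at 0 h. Xbp1 rose by 0.92 ± 0.15 on the log2 scale in the wild-type-labelled arrays (adjusted p = 0.000231), a factor of 1.90. The change in the mutant-labelled arrays was 0.06 ± 0.15 (adjusted p = 0.835). The mutant-labelled minus wild-type-labelled difference at 48 h was -0.83 ± 0.15 (adjusted p = 0.000678). The rise and this difference held under every alternative run. At 8 h the mean was 11633 ± 1125 in mutant-labelled and 11538 ± 2886 in wild-type-labelled arrays (SD, n = 3 each). Neither change from 0 h passed, at 0.37 ± 0.15 in mutant-labelled and 0.36 ± 0.15 in wild-type-labelled arrays (adjusted p = 0.215 and 0.436). The wild-type-labelled change passed without replicate 3 at 8 h, at 0.56 (adjusted p = 0.0435). The summed signal of 13 neutrophil markers was also higher at 48 h. It was 65778 to 87949 in the mutant-labelled arrays, against 43549 to 47016 at 0 h. It was 90150 to 122364 in the wild-type-labelled arrays, against 47825 to 55184 at 0 h, and its part in the Xbp1 value was not tested. In the mutant-labelled arrays the defining markers S100a8, S100a9 and Ngp were not higher, with means of 3823, 2117 and 771 at 48 h, against 4020, 2352 and 1072 at 0 h. Of 8 tested neutrophil markers there, 1 rose, and their median log2 change was -0.09. In the wild-type-labelled arrays the means were 14405, 9092 and 490 at 48 h, against 3634, 2410 and 1034 at 0 h. That of the B and plasma cell markers did not move with it, at 2817 to 3364 in the wild-type-labelled arrays at 48 h, against 2685 to 3719 at 0 h.

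Atf4 and Ddit3 are the transcription factors of the PERK branch, and Ddit3, also called CHOP, is known for promoting cell death under lasting stress. Atf4 gave 12234, 11396 and 11023 in the mutant-labelled arrays at 0 h, 8404, 10849 and 8585 at 16 h and 8399.7, 8058 and 7468 at 48 h. Wild-type-labelled arrays gave 9594, 9242 and 9658 at 0 h, 9263, 8717 and 8849.5 at 16 h and 9032, 8306 and 8430.4 at 48 h. The mutant-labelled arrays at 48 h lay below all 3 at 0 h, and those at 0 h lay above all wild-type-labelled arrays at 0 h. Atf4 fell in the mutant-labelled arrays by 0.53 ± 0.09 on the log2 scale at 48 h (adjusted p = 0.000413) and by 0.32 ± 0.09 at 16 h (adjusted p = 0.0333). The call at 16 h was lost without mutant-labelled replicate 1, 2 or 3 at 0 h or replicate 1 or 3 at 16 h (adjusted p = 0.12, 0.0679, 0.0653, 0.129 and 0.121), with all 30 arrays fitted (0.085) and on the 6 arrays alone (0.238). The fall at 48 h was the firmer one, passing without any 1 array, with an adjusted p of 0.0568 on its 6 arrays alone. At 0 h it was higher in the mutant-labelled arrays by 0.28 ± 0.09 (adjusted p = 0.0244). That call was lost without wild-type-labelled replicate 1, 2 or 3 or mutant-labelled replicate 1 or 2 (adjusted p = 0.0548, 0.0699, 0.0541, 0.0883 and 0.0545), with all 30 arrays fitted (0.0611), on the 6 arrays alone (0.0639) or after quantile normalization (0.19). The wild-type-labelled change at 48 h was -0.15 ± 0.09 (adjusted p = 0.257), and the difference of the 2 changes, which was tested over all times, did not pass (adjusted p = 0.143).

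Ddit3 gave 1921, 1569.9 and 1481 in the mutant-labelled arrays at 48 h, against 2988, 3542 and 2538 at 0 h. It gave 2050.4, 1707 and 2048 in the wild-type-labelled arrays at 48 h, against 1427, 2337 and 2802 at 0 h. The mutant-labelled arrays at 48 h lay below those at 0 h, and the wild-type-labelled arrays of the 2 times overlapped. Ddit3 fell by 0.86 ± 0.26 on the log2 scale in the mutant-labelled arrays (adjusted p = 0.0333), a factor of 1.82. It did not pass without mutant-labelled replicate 1 or 2 at 0 h or replicate 2 or 3 at 48 h (adjusted p = 0.0788, 0.128, 0.0869 and 0.111) or without a filter on low signals (0.0736). Its wild-type-labelled change was -0.13 ± 0.26, and the difference between the labels' time courses did not pass (adjusted p = 0.32). The group means of Atf4 and Ddit3 moved together, with a Pearson r of 0.84 over 9 groups as a description. Neither gene passed as higher than at 0 h at any time under either label. Summed signals of 10 mature olfactory sensory neuron markers were lower at 48 h too. They were 88242 to 103871 against 113585 to 135828 at 0 h in the mutant-labelled arrays. In wild-type-labelled arrays they were 76943 to 88958 against 104425 to 121366 at 0 h, and their part in the falls of Atf4 and Ddit3 was not tested.

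Herpud1 encodes a membrane protein of the complex that hands misfolded proteins to the cytosol for degradation, and in many cells it is among the most inducible genes of the response. Its signals were 6811, 4311 and 8833 in the mutant-labelled arrays at 48 h, against 6928, 6032 and 7084 at 0 h. Wild-type-labelled arrays had 7539, 6190.3 and 6790.2 at 48 h, against 7694, 7603 and 6421 at 0 h. Each later group overlapped its own group at 0 h except the mutant-labelled arrays at 2 h. Its log2 changes from 0 h on the 27 arrays lay between -0.22 and -0.03, and none passed.

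**Figure D2:**
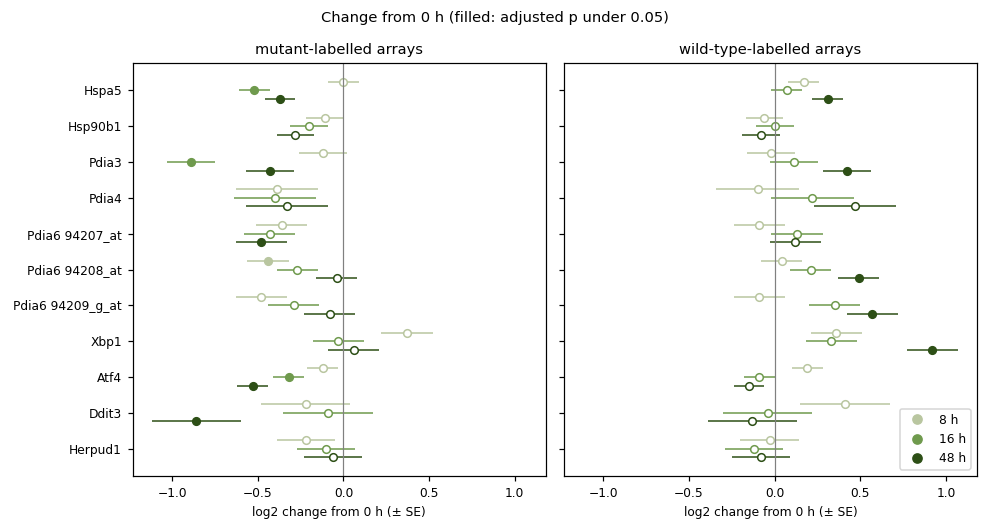
Log2 change of MAS5 signal from 0 h (x axis) with its SE for each of the 11 tested probe sets (rows) at 8, 16 and 48 h, mutant-labelled arrays in the left panel and wild-type-labelled arrays in the right. Filled points have a limma adjusted p under 0.05. They lie below 0 in the left panel and above 0 in the right, where they belong to 48 h alone.

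Compared at the same time, mutant-labelled arrays had less Hspa5 and Pdia3 at 16 h and 48 h and less Xbp1 at 48 h than wild-type-labelled arrays. At 48 h, 3 of 11 probe sets were lower in the mutant-labelled arrays, Hspa5, Pdia3 and Xbp1, where 11.0% of all tested probe sets were lower. At 16 h, 2 were lower, Hspa5 and Pdia3 (6.37% of all). At 8 h none passed limma's test in either direction (6.85% of all). There 0 of the 11 had an unadjusted p under 0.05, against 24.2% of all tested probe sets. At 0 h, 2 were higher, Atf4 and Pdia6 94208_at (9.82% of all). At 2 h, 1 was lower, Pdia6 94208_at, by a log2 difference of -2.10 (adjusted p = 0.0126, 7.41% of all) that did not pass on the 6 arrays alone (0.391). Without mutant-labelled replicate 1, the array farthest apart in RNA quality, that difference was -0.85 (adjusted p = 0.000207). Averaged over 0, 8, 16 and 48 h, 4 of 11 differed, where 42.6% of all did, so that count does not set the members apart. Those 4 were Xbp1 at -0.28 ± 0.08 (adjusted p = 0.00607), Pdia3 at -0.27 ± 0.07 (0.00397), Hspa5 at -0.13 ± 0.05 (0.0274) and Pdia6 94208_at at 0.22 ± 0.06 (0.00486). The Hspa5 value did not pass without mutant-labelled replicate 3 at 16 h (adjusted p = 0.0518), and the Pdia6 value did not with all 30 arrays fitted (adjusted p = 0.537).

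The time courses themselves differed between the labels for 3 of 11 probe sets, those of Pdia3, Hspa5 and Xbp1, where 5.96% of all tested probe sets passed the moderated F test over the 3 times. For Pdia3 the mutant-labelled change from 0 h minus the wild-type-labelled one was -0.10, -1.0 and -0.84 at 8, 16 and 48 h (SE 0.20, adjusted p = 0.00574). For Hspa5 it was -0.17, -0.59 and -0.68 (SE 0.13, adjusted p = 0.00798). Both passed under every alternative run. For Xbp1 it was 0.01, -0.36 and -0.86 (SE 0.22, adjusted p = 0.037). That value passed in 15 of 30 alternatives, with adjusted p from 0.0118 to 0.0888, and did not pass without any 1 of 11 of the 24 arrays. These were mutant-labelled replicates 1 and 3 at 0 h, 2 and 3 at 8 h and 1 and 3 at 48 h, and wild-type-labelled replicates 2 and 3 at 0 h, 3 at 16 h and 1 and 3 at 48 h. At 48 h the median difference of the 11 probe sets, 3 of them of Pdia6, was -0.65, against 0.03 over all tested probe sets. All of these differences share the arrays at 0 h. A part of that median lies at 0 h, where the median mutant-labelled minus wild-type-labelled difference of the 11 was 0.25, against -0.06 over all, and where the B and plasma cell marker sums differed as given above.

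**Figure D3:**
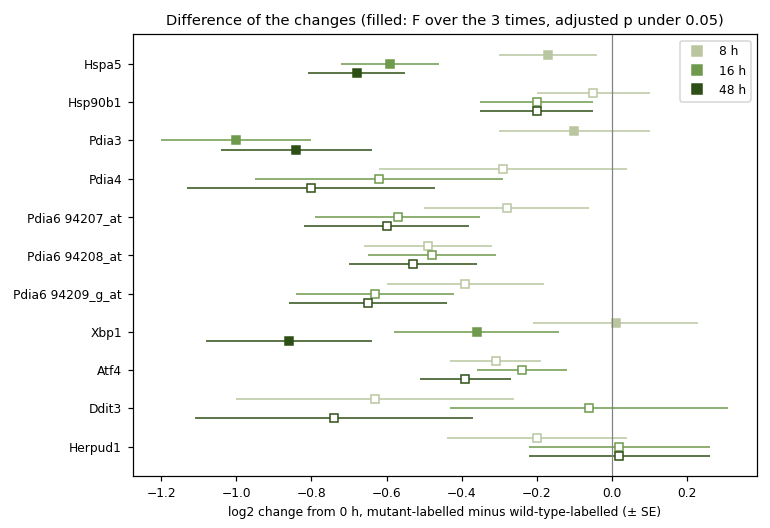
Difference of the log2 changes from 0 h, mutant-labelled minus wild-type-labelled, with its SE (x axis) for each tested probe set (rows) at 8, 16 and 48 h. Filled points are the probe sets with an adjusted p under 0.05 in the F test over the 3 times, Hspa5, Pdia3 and Xbp1, which reach -0.68, -0.84 and -0.86 at 48 h.

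Among other genes of the pathway, 3 of 25 tested ER chaperones and folding enzymes passed the same test of their time courses, against 5.96% of all tested probe sets. These were Clgn and Ero1a, given below, and Dnajb11, in the direction of Hspa5. It encodes a co-chaperone of BiP and gave 1461, 1598 and 1213 in the mutant-labelled arrays at 48 h, against 1925, 2025 and 2128 in the wild-type-labelled ones. The labels did not overlap. Its log2 difference was -0.52 ± 0.10 (adjusted p = 0.0014) and its differences of changes were 0.04, -0.50 and -0.72 at 8, 16 and 48 h (adjusted p = 0.00574). Of the 25 tested genes of other ER chaperones and folding enzymes, 5 fell and 0 rose in mutant-labelled arrays by 48 h, and 5 fell and 3 rose in the wild-type-labelled arrays. Of all tested probe sets, 6.79% fell and 6.46% rose in mutant-labelled arrays by then, and 9.04% fell and 9.80% rose in wild-type-labelled arrays. These shares are also the background of the other pathway and marker lists at 48 h. The largest falls were found under both labels. Serpinh1, the collagen chaperone, changed by -1.19 ± 0.26 in the mutant-labelled and -1.20 ± 0.26 in the wild-type-labelled arrays (adjusted p = 0.00419 and 0.00221). P4ha1, a collagen prolyl hydroxylase, changed by -0.70 and -0.73. Ero1a, the oxidase that recharges the disulfide isomerases, differed in its time course (adjusted p = 0.0299). Its differences of changes were 0.87, 0.80 and 0.43, the opposite sign to Hspa5 and Pdia3. At 0 h its mutant-labelled arrays already lay below the wild-type-labelled ones, at 2318, 2149 and 2257 against 3968, 2799 and 3854.5. By 48 h its means were 2284 in the mutant-labelled and 2661 in the wild-type-labelled arrays.

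In the ER-associated degradation list of 7 tested genes, Derl2, a part of the channel complex, rose by 0.54 ± 0.13 in the wild-type-labelled arrays at 48 h (adjusted p = 0.00451). Its time course differed between the labels (adjusted p = 0.0272), with -0.87 ± 0.18 at 48 h. At 0 h it was already higher in the mutant-labelled arrays, by 0.59 (adjusted p = 0.00266). Among 6 tested genes of the sensors and their proteases, none changed from 0 h at 8, 16 or 48 h under either label. Eif2ak3, which encodes PERK, was lower in the mutant-labelled arrays by 0.68 ± 0.13 at 0 h (adjusted p = 0.00146), 0.83 ± 0.13 at 16 h (0.000882) and 0.73 ± 0.13 at 48 h (0.000659) on the log2 scale. It did not pass at 2 h, where the mean was 832 in the mutant-labelled and 727 in the wild-type-labelled arrays (log2 difference 0.19 ± 0.14, adjusted p = 0.435). At 8 h the groups overlapped, at 617, 679 and 579 in the mutant-labelled and 646, 768 and 927 in the wild-type-labelled arrays (-0.31 ± 0.13, adjusted p = 0.156). Over 0, 8, 16 and 48 h the Eif2ak3 signal was 575 ± 81.2 in the mutant-labelled and 895 ± 115.5 in the wild-type-labelled arrays (SD, n = 12 each). At 0, 16 and 48 h the mRNA differences of Atf4 were 0.28, 0.04 and -0.11. The translation of Atf4, on which PERK acts, was not measured.

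Of 26 tested targets and partners of ATF4 and CHOP, 1 rose and 3 fell at 48 h in the mutant-labelled arrays, and 4 rose and 5 fell in the wild-type-labelled arrays. Atf3, a stress-induced transcription factor, fell under both labels, by 1.72 in the mutant-labelled and by 1.20 in the wild-type-labelled arrays on the log2 scale by 48 h (adjusted p = 0.000682 and 0.00656). Cebpb, which encodes a partner of CHOP, had a difference of changes of -1.23 ± 0.14 at 48 h (adjusted p = 1.52e-05), larger than that of any of the 11 member probe sets. The mutant-labelled arrays averaged 4594 ± 155.7 at 48 h and 7433 ± 612.1 at 0 h (SD, n = 3 each). The wild-type-labelled arrays averaged 6468 ± 310.0 at 48 h and 4474 ± 607.8 at 0 h. Of the 26, 5 passed the F test of the time course, against 5.96% of all tested probe sets. Nupr1 and Gadd45a went the way of Cebpb, with -1.07 ± 0.33 and -0.94 ± 0.18 at 48 h (adjusted p = 0.0422 and 0.013). Mthfd2, a mitochondrial folate enzyme under ATF4 control, went the other way, with 1.12 ± 0.22 (adjusted p = 0.00829). Trib3, the last of the 5, had 0.05 ± 0.24 at 48 h (adjusted p = 0.0481). Of 19 tested genes of ER translocation and N-glycosylation, 3 rose and 0 fell at 48 h under each label. Sec11c, a signal peptidase subunit, was among them under both, with 0.44 in the mutant-labelled and 0.59 in the wild-type-labelled arrays.

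**Figure D4:**
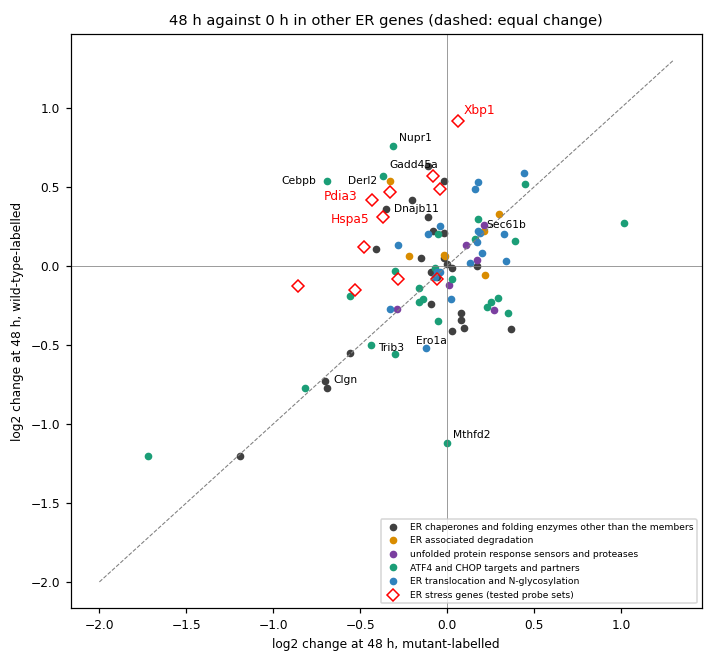
Log2 change from 0 h to 48 h in mutant-labelled arrays (x axis) against that in wild-type-labelled arrays (y axis), 1 point per tested gene of the 5 pathway lists, coloured by list, with the member probe sets as red diamonds and the dashed line at equal change. Named points passed the test of a difference in time course. Hspa5 and Pdia3 lie left of 0 and above 0, and Xbp1 lies near 0 on the x axis and at 0.92 on the y axis.

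The members fell into more than 1 pattern over the 9 groups that remain without the mutant-labelled arrays at 2 h. Beside the pairs of Hspa5 with Pdia3 and Atf4 with Ddit3, Pearson's r of the group means was 0.86 for Pdia6 94209_g_at with Pdia4 and 0.75 for Pdia3 with Pdia4. It was -0.47 for Xbp1 with Hsp90b1 and 0.34 for Pdia6 94207_at with Pdia6 94208_at. In the order of the 9 group means, few neighbours were separate. For Hspa5, the arrays of only 1 pair of neighbours did not overlap, the mutant-labelled group at 48 h and, above it, the wild-type-labelled group at 0 h. For Xbp1 the only such pair was the wild-type-labelled group at 48 h and, below it, the mutant-labelled group at 8 h. For Ddit3, Pdia4, Hsp90b1 and Herpud1 no pair of neighbours was separate. Other genes with group means most like those of Hspa5, of 6309 candidate probe sets, were Mcl1, Dnajc21, Wdr82, Junb and Ginm1, with Pearson r of 0.922 to 0.889. Those most like Ddit3 were Macroh2a1, Rundc3a, Strbp, Serpini1 and Capza1, with r of 0.926 to 0.904.

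Markers of the other cells in the dissected tissue changed beside these genes. At 48 h, 5 of 10 tested markers of mature sensory neurons fell and 0 rose in the mutant-labelled arrays, and 7 fell and 1 rose in the wild-type-labelled arrays. Of 12 tested macrophage markers, a list that holds Msr1, 5 rose in the mutant-labelled and 6 in the wild-type-labelled arrays at 48 h. Of 8 tested neutrophil markers, 1 rose in the mutant-labelled arrays, and 3 rose and 2 fell in the wild-type-labelled arrays. Of 6 tested B and plasma cell markers, 4 were higher in the mutant-labelled than in the wild-type-labelled arrays at 48 h, where Hspa5, Pdia3 and Xbp1 were lower. At 0 h 5 of the 6 were higher. Ighm, which defines B cells, was at or below the floor on all wild-type-labelled arrays at 0 h and 48 h. Within the mutant-labelled arrays at 48 h, replicate 2 was the highest for Hspa5, Hsp90b1, Pdia3, Pdia4 and the Pdia6 probe sets. Without that array Hsp90b1 passed as a fall in the mutant-labelled arrays at 48 h (-0.39, adjusted p = 0.0315). Also without it, Pdia4 and Pdia6 94209_g_at passed as lower than in the wild-type-labelled arrays at 48 h (-0.76 and -0.50, adjusted p = 0.0452 and 0.0108). The time courses of Pdia6 94208_at and 94209_g_at then differed between the labels too (adjusted p = 0.0242 and 0.0146). Replicate 2 also had the highest B and plasma cell sum, 22242 against 16278 and 12976. In the mutant-labelled group at 8 h, replicate 2 likewise had both the highest sum, 19674, and the most Hspa5, 14831. In the mutant-labelled groups at 0 h and 16 h the array with the highest sum did not have the most Hspa5. At 0 h replicate 1 had the highest sum, 28181, and the lowest Hspa5 signal, 13981, and at 16 h replicate 3 had the highest sum, 19771, and the lowest Hspa5 signal, 9273. The part of these cells in the members' values was not tested.

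**Figure D5:**
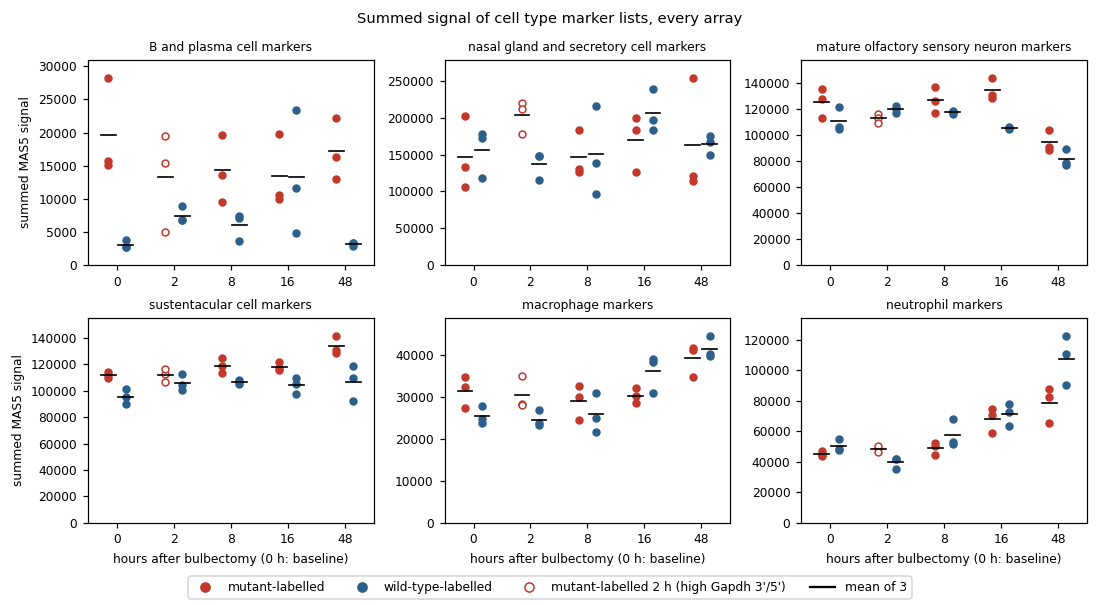
Summed MAS5 signal (y axis) of the markers of 6 cell types, 1 panel per list, against hours after bulbectomy, with each array as a point and mutant-labelled arrays left of wild-type-labelled arrays. The B and plasma cell sum lies at 15081 to 28181 in the mutant-labelled and 2685 to 3719 in the wild-type-labelled arrays at 0 h.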

How the data were processed

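Total RNA of microdissected olfactory epithelium was hybridized to 1-colour oligonucleotide arrays, 1 sample per array, and the authors deposited MAS5 signal intensity values on a linear scale, per the submitters' processing notes, which name no version of MAS5 here. Each array's mean after trimming 2% at each end was 1500.7 to 1500.9, and no 2 arrays were identical. Of 12488 probe sets, 66 array controls were left out; 10833 were annotated to 1 gene, 396 to several and 1193 to none, and 10817 of the 10833 matched GRCm38.p6 by gene ID. Signals were floored at 113.7, the 25th percentile of all signals, and log2 transformed. The 6968 probe sets with at least 3 arrays above the pooled median of 572.0 were tested, and 5454 were not. Groups, taken from the sample labels, were compared with moderated tests in limma 3.58.1 (R 4.3.3) with a shared spread and Benjamini-Hochberg adjustment over all tested probe sets, threshold 0.05. The main fit used 27 arrays, and comparisons with the mutant-labelled arrays at 2 h used 30. A gene of a list with several probe sets was represented by its brightest. Replicate numbers did not pair the arrays: of 36 pairs of groups, 0 had every same-numbered correlation of deviations over 0.1. The members, lists, named genes (up to 3 per pathway list and comparison with the largest change, and the 5 likest patterns) and tests were chosen with earlier results of these data known. Alternatives were log2 of the signal plus a pseudocount of 16, a limma fit with trend and robust moderation, no filter, quantile normalization, a replicate block, other sets of arrays and leaving out each array. The fit was tested on simulated data.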

Additional observations from a re-analysis of the deposited data

Results flagged for a closer look

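For 3 of the 11 tested probe sets the change after bulbectomy differed between the labels by the test of that difference, a moderated F test in limma over 8, 16 and 48 h with 12 arrays per label. They were Pdia3 (adjusted p = 0.00574), Hspa5 (adjusted p = 0.00798) and Xbp1 (adjusted p = 0.037), and of the 24 fits that leave out 1 array, 24, 24 and 13 kept the call. Groups of 3 arrays were not tested for single outlying arrays.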

How the results depend on the processing

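Of 2530 values of the member probe sets under an alternative, 2415 stayed on their side of the threshold, 98 were no longer past it and 17 newly passed. Outside the time course test, 0 of the values past the threshold in either run changed sign. Values past it in neither run were not counted by sign, and some changed it. One was Ddit3 in the wild-type-labelled arrays at 48 h, at -0.13 as reported and up to 0.08 under an alternative. The rise of Xbp1 in the wild-type-labelled arrays at 48 h, the fall of Pdia3 at 16 h in the mutant-labelled arrays, the label differences of Pdia3 at 16 h and 48 h and of Xbp1 at 48 h, and the differing time courses of Hspa5 and Pdia3 passed under every alternative run. With all 30 arrays fitted, 2 of 11 probe sets passed in the wild-type-labelled arrays at 48 h against 0 h, 0 at 8 h in the mutant-labelled arrays and 0 between labels at 0 h. Without a filter on low signals, 0 passed at 8 h and 2 at 48 h in the mutant-labelled arrays; with quantile normalization, and with the replicate block, 0 passed at 8 h. The replicate block, run although the numbers did not pair the arrays (correlations of deviations from -0.353 to 0.351), also ended the calls of Pdia3 at 48 h under each label (adjusted p = 0.0592 in mutant-labelled and 0.0543 in wild-type-labelled arrays) and of the Xbp1 time course (adjusted p = 0.051), and no other call of a member. Fitted on the groups compared alone, which leaves fewer arrays for the spread, the mutant-labelled counts were 0 at 2 h, 1 at 16 h and 1 at 48 h, and those between labels 0 at 2 h and 1 at 16 h; with replicate 2 as the only mutant-labelled array at 2 h, assumed to vary like the other groups, 1 passed there. For the other changes the cause was not tested. Leaving out 1 array at a time gave 1 to 4, 0 to 0, 2 to 3 and 2 to 5 probe sets at 2, 8, 16 and 48 h in the mutant-labelled arrays, and 0 to 0, 0 to 1, 0 to 0 and 3 to 4 in the wild-type-labelled arrays. Between labels it gave 1 to 2, 1 to 3, 0 to 0, 1 to 2 and 3 to 5 at 0, 2, 8, 16 and 48 h, 3 to 5 over the 4 times and 2 to 5 for the time course. Without mutant-labelled replicate 2 at 2 h, Pdia4 against 0 h and Pdia4 and Pdia3 between labels newly passed (adjusted p = 0.00994, 0.02 and 0.0473). Without replicate 3 there, Pdia6 94209_g_at between labels did (0.00988). Over the 4 times, Hsp90b1 newly passed without wild-type-labelled replicate 3 at 16 h (0.0247) and Herpud1 without mutant-labelled replicate 3 at 48 h (0.0215). Xbp1 at 8 h and those named for mutant-labelled replicate 2 at 48 h also newly passed. Under quantile normalization, and on the groups compared alone, Pdia6 94207_at and 94209_g_at newly passed as higher in mutant-labelled arrays at 0 h. On the groups compared alone, 94209_g_at also passed as a fall in the mutant-labelled arrays at 8 h (adjusted p = 0.044). Over all 6968 probe sets, settings other than leaving out an array called 204 to 950 probe sets at 48 h in the mutant-labelled arrays (923 as reported), 145 to 368 at 16 h (361), 31 to 1249 at 2 h (1233), 339 to 1410 between labels at 48 h (1392), 373 to 813 at 16 h (782), 14 to 503 at 8 h (477), 23 to 632 at 2 h (629) and 228 to 444 for the time course (415). In the wild-type-labelled arrays they called 40 to 160 at 2 h (132), 0 to 17 at 8 h (17) and 941 to 1462 at 48 h (1313). Leaving out 1 array at a time, which also leaves fewer arrays for the spread, called 510 to 1573, 66 to 125, 138 to 283 and 545 to 1163 of them at 2, 8, 16 and 48 h in the mutant-labelled arrays (177 as reported at 8 h), and 0 to 137, 3 to 125, 272 to 413 and 830 to 1186 in the wild-type-labelled arrays (668 as reported at 16 h). Between labels it called 989 to 1378 at 0 h (1624 as reported), 277 to 981 at 2 h, 101 to 566 at 8 h, 371 to 705 at 16 h, 822 to 1510 at 48 h, 2740 to 2969 over the 4 times (2970) and 232 to 515 for the time course. Of the 10 genes most like Hspa5 or Ddit3 over 9 groups, 4 were again among them over 10 groups.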

Other observations

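Outside the comparisons above, Ndrg1, a stress-responsive gene of the ATF4 and CHOP list, rose at 8 h under both labels, by a log2 change of 1.85 in the mutant-labelled arrays (limma, adjusted p = 7.99e-06) and 1.06 in the wild-type-labelled arrays (adjusted p = 0.014). None of the 11 ER stress probe sets passed as a rise at 8 h with all arrays of the comparison, and Xbp1 did in the wild-type-labelled arrays without replicate 3 at 8 h (0.56, adjusted p = 0.0435). Ganab, which encodes the catalytic subunit of the ER glucosidase that trims glycoproteins for calnexin and calreticulin, was lower in the mutant-labelled arrays over 0, 8, 16 and 48 h, at 2260 ± 400.1 against 3301 ± 557.4 in the wild-type-labelled arrays (SD, n = 12 each), a log2 difference of -0.55 ± 0.09 (adjusted p = 4.75e-05). Srp9, a subunit of the signal recognition particle, was higher over the same times, by 0.55 (adjusted p = 1.12e-06). The list of sustentacular cell markers had 2 of 10 genes higher at 48 h than at 0 h under each label, and that of nasal gland markers 0 of 9 in the mutant-labelled and 2 of 9 in the wild-type-labelled arrays.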
